A study of Homo sapiens with 15 samples.

Results

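The C/D box small nucleolar RNAs (snoRNAs) encoded inside ribosomal protein genes were read from small RNA sequencing of 15 human libraries whose labels give the embryonic kidney line HEK-293, genotype WT. They are the SNORD genes whose first annotated interval lies within the span of a ribosomal protein gene on the same strand, leaving out the RPL13A-hosted SNORD32A, SNORD33, SNORD34 and SNORD35A and the SNORD14 copies. This gave 35 snoRNAs in 15 host genes, of 399 SNORD genes and 50037 genes in the count table. The 5 libraries of the GKT136901+LPL:VLDL group came from cells given very low-density lipoprotein (VLDL) lipids released by lipoprotein lipase (LPL) together with GKT136901 at 20 µM, which inhibits NOX1 and NOX4, enzymes that make superoxide from NADPH. The 5 LPL:VLDL libraries came from cells given the same hydrolysis products alone, and the 5 VLDL libraries, titled pcDNA:VLDL without a statement of what pcDNA stands for, from cells given VLDL. All incubations lasted 18 h, so every group received lipoprotein or its lipids and no group was left without them. Replicates 1 to 5 of each group are labelled as experiments 2 to 6, so each experiment holds 1 library of each group. Whether the experiments were separate passages of the cells is not stated, so a p-value here reflects how the libraries scatter, and that scatter may be technical.

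C/D snoRNAs are short RNAs with 2 conserved motifs, box C near the 5′ end and box D near the 3′ end. They associate with fibrillarin, NOP56, NOP58 and SNU13, and most pair with ribosomal RNA (rRNA) through the bases just upstream of box D, or of an internal copy of it, to direct 2′-O-methylation of the paired nucleotide. In vertebrates many are cut out of the introns of genes for ribosomal proteins, so that the transcript that supplies a ribosomal protein also supplies a guide for rRNA modification. The mature snoRNA and the spliced host mRNA are then stable to different degrees, and their levels need not follow each other.

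The 35 genes were 55 to 148 nt long, with a median of 72 nt. Most sat close to the next exon of the host. The distance to it was 89 nt at the median, and 25 of the 35 lay 60 to 120 nt before it. This distance was also taken for SNORD73A and SNORD58B, which lie wholly within an annotated exon of their host, and it was 0 for SNORD139. SNORD101 in RPS12 lay farthest, 1081 nt before the next exon. Sequences were taken from GENCODE release 29 transcripts on GRCh38, where 34 of the 35 matched. The letters TGATG, the core of box C, stood in the first 25 bases of 33 of the 34 (97.1%), against 198 of the 239 other SNORD genes with a sequence (82.8%). The longer TGATGA stood there in 22 of the 34 (64.7%) and in 170 of the 239 (71.1%). The box D letters CTGA stood in the last 25 bases of all 34, and in 225 of the 239 others (94.1%). All motifs were searched on the transcribed strand.

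Sequences are shown 5′ to 3′ for the snoRNAs on which the results turn, with the box C letters TGATGA and the box D letters CTGA in capitals. The SNORD18 copies of RPL4 are shown because their levels differed most within a host. All lie on the minus strand of GRCh38, SNORD18A at chr15:66503243-66503314, SNORD18B at chr15:66502020-66502091 and SNORD18C at chr15:66501250-66501318.
SNORD18A: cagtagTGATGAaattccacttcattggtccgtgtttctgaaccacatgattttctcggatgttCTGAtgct
SNORD18B: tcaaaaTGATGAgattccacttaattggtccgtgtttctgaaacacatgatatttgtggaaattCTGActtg
SNORD18C: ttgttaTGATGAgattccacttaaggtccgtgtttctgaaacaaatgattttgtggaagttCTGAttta
SNORD18A was identical to SNORD18B over 78.4% of their alignment and to SNORD18C over 77.8%, and SNORD18B and SNORD18C over 84.7%. All 3 hold the same 16-base run, ggtccgtgtttctgaa, with an internal CTGA in it.

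The RPS12 snoRNAs and SNORD15A of RPS3 are shown because they differed between experiments. SNORD101 (chr6:132815307-132815379) and SNORD100 (chr6:132816802-132816877) lie on the plus strand within RPS12, and SNORD15A (chr11:75400391-75400538) on the plus strand within RPS3.
SNORD101: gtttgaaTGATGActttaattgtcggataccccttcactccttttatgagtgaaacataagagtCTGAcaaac
SNORD100: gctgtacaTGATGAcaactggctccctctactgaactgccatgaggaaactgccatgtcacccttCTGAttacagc
SNORD15A: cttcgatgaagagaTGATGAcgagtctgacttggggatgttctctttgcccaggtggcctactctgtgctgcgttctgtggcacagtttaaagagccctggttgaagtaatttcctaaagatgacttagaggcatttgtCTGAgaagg

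The deposited values are read counts per gene, and 28 of the 35 snoRNAs had at least 1 count. The 28 held 13758332 of 132787575 counts, which is 10.4% of all counts and 18.3% of those on SNORD genes. The other 7, SNORD73A and SNORD73B of RPS3A, SNORD24, SNORD36A, SNORD36B and SNORD36C of RPL7A, and SNORD58B of RPL17, had a count of 0 in every library. SNORD73A and SNORD58B lie wholly within an annotated exon of their host, and 6 of the 7 have a second row on another contig, also at 0; no snoRNA with counts had either feature. Reads over exons of more than 1 gene or mapped to more than 1 place were not counted, so a 0 here is not a measure of the RNA's level. SNORD139 of RPL3 had 27 counts in 6 libraries and was too low to test. The remaining 27 passed the filter on low counts and are the ones compared below.

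Libraries held between 5076917 and 9757123 counts in total, the fewest in GKT136901+LPL:VLDL replicate 2. The HEK-293 label was checked against 8 marker genes, of which LIN28B, NEFM, HOXD13 and EYA4 had no counts and only HOXA9 was high enough to test; the list summed to 0.788 to 1.77 CPM (counts scaled to a common total per library) in GKT136901+LPL:VLDL libraries, 0.529 to 1.51 CPM in LPL:VLDL libraries and 0.307 to 1.82 CPM in VLDL libraries. Of 13 myeloid markers, 12 had counts, led by CSF1R, and AIF1 had none; the list summed to 27.8 to 78.0 CPM in GKT136901+LPL:VLDL libraries, 25.7 to 119 CPM in LPL:VLDL libraries and 36.2 to 102 CPM in VLDL libraries. The series title speaks of macrophages, so the labelled line and these marker fragments do not point the same way, and the cells are called here by their label. Of 4 hepatocyte genes only APOA1 had any counts, 7 in all. Levels below are CPM scaled with TMM (trimmed mean of M values) factors. Folds between copies and levels within a host are compared per base, after division by length. Shares of counts, the order by abundance, correlations with mean CPM and ratios of raw counts, written as 1 snoRNA over another, are not divided by length.

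Level differed widely among the 27, also between snoRNAs cut from 1 host transcript. SNORD101 of RPS12 was highest, with 363 CPM per base, and SNORD72 of RPL37 lowest, with 0.145 CPM per base. SNORD101 alone held 24.9% of the counts of the set. The 8 most abundant by CPM, SNORD101, SNORD18A, SNORD55, SNORD68, SNORD21, SNORD102, SNORD43 and SNORD58A, held 84.5%.

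In RPL4, SNORD18A, which guides 28S rRNA methylation, reached 247 CPM per base, against 2.63 for SNORD18C and 0.515 for SNORD18B. Over the 15 libraries SNORD18A exceeded SNORD18C 94.6 ± 17.0-fold per base and SNORD18B 502 ± 164-fold (SD, n = 15), although the 3 share the run shown above. SNORD16, the fourth snoRNA of RPL4 and a guide for 18S rRNA, stood between the copies at 1.33 CPM per base.

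Other copies of 1 number differed less. In RPS3, SNORD15A exceeded SNORD15B 9.25 ± 3.40-fold per base. In RPL3, SNORD83A exceeded SNORD83B 6.57 ± 1.87-fold, while SNORD43, an 18S guide in the same gene, stood above both at 92.6 CPM per base. SNORD38A exceeded SNORD38B, both 28S guides, 4.88 ± 0.768-fold. In RPL17, SNORD58A exceeded SNORD58C 4.04 ± 0.363-fold. The counted interval of SNORD58C is 90 nt, against 64 nt for its GENCODE transcript, and the ratio of raw counts was 2.91 ± 0.262. In RPL23A, the 18S guides SNORD42A and SNORD42B differed by 1.68 ± 0.268-fold and SNORD4B and SNORD4A by 2.41 ± 0.624-fold (SD, n = 15 in each case). Multiply mapped reads were not counted, so reads short enough to fit both copies of a pair are missing from both.

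**Figure D1:**
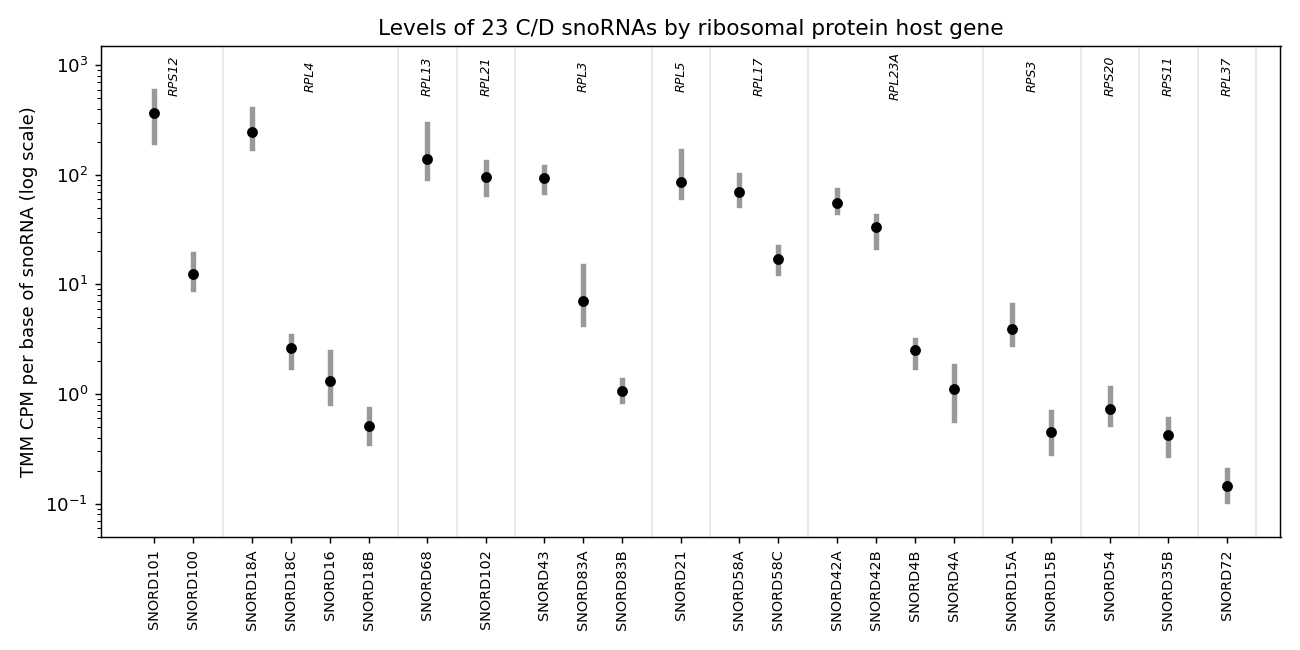
Level per base of 23 of the tested snoRNAs, grouped by host gene. The vertical axis is TMM-scaled CPM per base on a log scale, points are means over 15 libraries and bars run from the lowest to the highest library. SNORD101 stands at 363 and SNORD72 at 0.145, and within RPL4 the copies SNORD18A and SNORD18B stand at 247 and 0.515.

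The hosts' own exons carried few counts. In a small RNA library mRNA is present only as fragments, and multiply mapped reads were not counted, so host counts are not a measure of host mRNA level. The part of either in the low counts was not tested. All 15 hosts summed to 2561 counts over the 15 libraries, against 3549104 on the pair of snoRNAs of RPS12 alone. RPL7A and RPS3A, hosts of 6 of the 7 snoRNAs at 0, also had no counts. Across the 27 snoRNAs, mean CPM and the host's count had a Spearman correlation of -0.00061, and mean CPM and the distance to the next exon one of 0.11; both describe snoRNAs that share hosts and libraries.

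The values in each library are given for the 8 most abundant in the order of replicates 1 to 5. SNORD101 had 16108, 28827, 22868, 24858 and 30319 CPM with GKT136901+LPL:VLDL, 14697, 42610, 27041, 24716 and 34445 CPM with LPL:VLDL, and in the VLDL libraries 18986, 25501, 27928, 28938 and 30002 CPM. Replicate 1 was lowest in each group, LPL:VLDL replicate 2 was highest of all, and the groups overlapped. SNORD18A had 14671, 18271, 15060, 13912 and 20321 CPM with GKT136901+LPL:VLDL, 12215, 27707, 17557, 14639 and 21004 CPM with LPL:VLDL, and in the VLDL libraries 14128, 16784, 18586, 16947 and 17501 CPM. Its highest value was again LPL:VLDL replicate 2, and its lowest was LPL:VLDL replicate 1, so the LPL:VLDL libraries spanned those of both other groups.

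SNORD55, a 28S guide, had 9667, 10665, 8442, 7363 and 11342 CPM with GKT136901+LPL:VLDL, 7826, 22843, 10862, 7873 and 10062 CPM with LPL:VLDL, and in the VLDL libraries 8401, 9579, 10384, 8992 and 10047 CPM. All libraries but LPL:VLDL replicate 2 lay in 1 band. SNORD68 of RPL13, which guides sites in 18S and 28S rRNA, had 9042, 10477, 9286, 6788 and 11435 CPM with GKT136901+LPL:VLDL, 7517, 21091, 11881, 7404 and 10341 CPM with LPL:VLDL, and in the VLDL libraries 6868, 9963, 10780, 8930 and 8899 CPM. The same library was far above the rest. SNORD21 of RPL5, a 28S guide, had 6330, 7752, 6345, 6336 and 10222 CPM with GKT136901+LPL:VLDL, 5948, 15525, 7654, 6215 and 9488 CPM with LPL:VLDL, and in the VLDL libraries 7427, 7392, 7973, 8120 and 8958 CPM. Here too LPL:VLDL replicate 2 was highest, followed by GKT136901+LPL:VLDL replicate 5.

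SNORD102 of RPL21, a 28S guide, had 5839, 7431, 5784, 6230 and 8098 CPM with GKT136901+LPL:VLDL, 4829, 8560, 6991, 6444 and 9437 CPM with LPL:VLDL, and in the VLDL libraries 5112, 6772, 7136, 7229 and 7748 CPM. Replicate 5 was highest and replicate 1 lowest or next to lowest in each group. SNORD43 had 6508, 7064, 6346, 4325 and 5094 CPM with GKT136901+LPL:VLDL, 4890, 6608, 6078, 5027 and 5410 CPM with LPL:VLDL, and in the VLDL libraries 4860, 7288, 6786, 5426 and 4427 CPM. LPL:VLDL replicate 2 was within the range of the other groups for this snoRNA. SNORD58A, a 28S guide, had 4298, 4886, 4356, 3517 and 4582 CPM with GKT136901+LPL:VLDL, 3443, 6459, 4580, 4120 and 5251 CPM with LPL:VLDL, and in the VLDL libraries 3926, 4599, 4869, 4553 and 4305 CPM. Its groups overlapped as well.

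**Figure D2:**
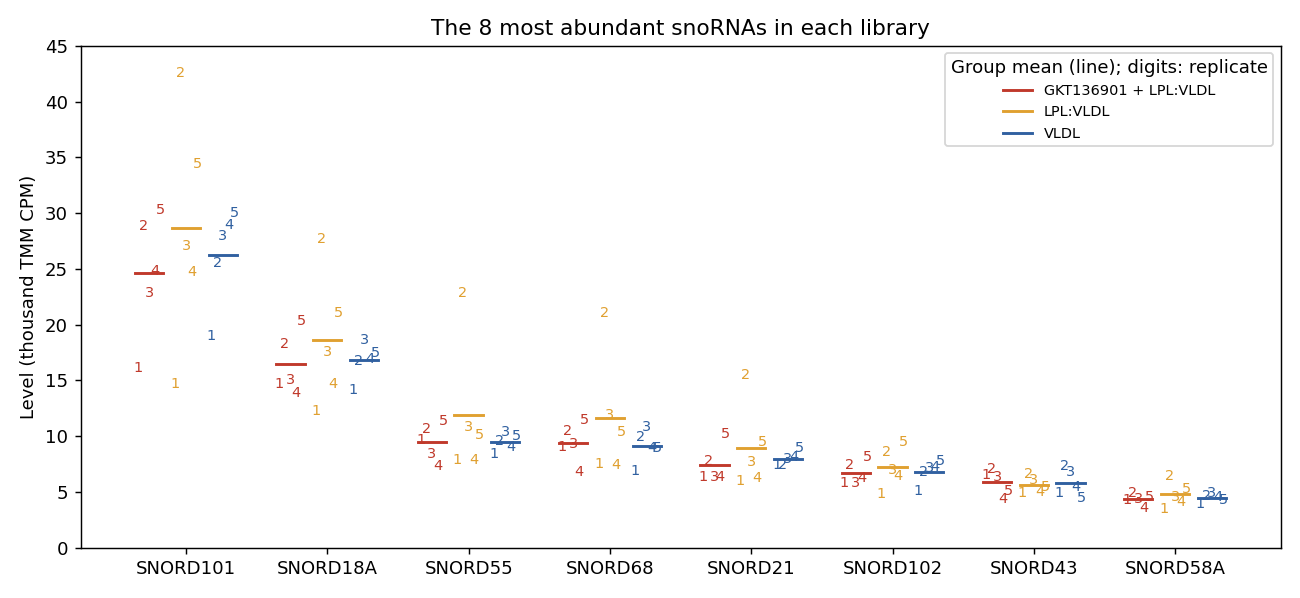
The 8 most abundant snoRNAs in each library, in TMM-scaled CPM divided by 1000 on a linear axis. Digits are replicate numbers, columns are GKT136901+LPL:VLDL, LPL:VLDL and VLDL from left to right, and lines are group means. LPL:VLDL replicate 2 stands above every other library for SNORD101, SNORD18A, SNORD55, SNORD68, SNORD21 and SNORD58A.

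The effect of the hydrolysis products was read from LPL:VLDL against VLDL. No snoRNA of the set passed the test: 0 of 27 passed an adjusted p of 0.05 in edgeR's quasi-likelihood test, where 0 of all 4099 genes tested did (0%). An unadjusted p under 0.05 was reached by 0 of the 27 and 77 of all genes; DESeq2 also called 0 genes, with 126 at an unadjusted p under 0.05. With the experiment as a block, 1 of 4099 genes was called (0.0244%), and it was not one of the 27. The groups overlapped for every one of the 27. The share of all genes whose groups overlapped was not counted, so this is not read as a trait of the set.

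The differences below are from the fit without the block unless stated, and none passed the adjusted threshold. SNORD68 averaged 11647 ± 5613 CPM in LPL:VLDL libraries and 9088 ± 1468 CPM in VLDL libraries (SD, n = 5 each), a log2 difference of 0.36 (SE 0.23, edgeR adjusted p = 0.999). SNORD55 averaged 11893 ± 6265 CPM in LPL:VLDL libraries and 9480 ± 799 CPM in VLDL libraries, a difference of 0.33 (SE 0.23). SNORD46 averaged 3798 ± 2817 CPM in LPL:VLDL libraries and 2982 ± 144 CPM in VLDL libraries, a difference of 0.35 (SE 0.28). In each of the 3 the SD was several times larger with LPL:VLDL than with VLDL. With the experiment as a block, SNORD68, SNORD55 and SNORD46 stood at 0.27 (SE 0.14), 0.22 (SE 0.15) and 0.14 (SE 0.21). The edgeR adjusted p was 0.988 for each. The lowest p among snoRNAs with negative differences belonged to SNORD15B (-0.19, SE 0.23), SNORD72 (-0.15, SE 0.28) and SNORD18C (-0.10, SE 0.21). Under TMM scaling SNORD54 of RPS20, an 18S guide, was higher with LPL:VLDL in 5 of 5 experiments. No other of the 27 lay on the same side in all. Its difference was 0.22 (SE 0.24, edgeR adjusted p = 0.999). The pair of experiment 4 was nearly level, at 51.53 CPM for LPL:VLDL against 51.49 for VLDL. In experiment 6 the LPL:VLDL library had fewer raw counts of SNORD54, 324 against 346, although its total was larger. The side of experiment 6 therefore depended on the scaling. How many of all genes lay on 1 side was not counted, so this is not read as a trait of SNORD54.

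Which side of 0 the set lay on depended on 1 library, on the scaling and on the filter. Log2 differences were above 0 for 18 and below 0 for 9 of the 27, with a median of 0.05 against 0.01 for all genes tested. Without LPL:VLDL replicate 2, 6 were above and 21 below 0, with a median of -0.10 (all genes -0.02). Scaling by library size alone gave 5 above and 22 below, with a median of -0.10; this scaling moved the median of all genes to -0.11. With the stricter filter of at least 10 CPM in at least 5 libraries, 12 were above and 15 below, with a median of -0.03 (all genes 0.03). Without LPL:VLDL replicate 2, SNORD68, SNORD55 and SNORD46 stood at 0.02, -0.06 and -0.22.

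The effect of the inhibitor was read from GKT136901+LPL:VLDL against LPL:VLDL. Again no snoRNA passed, 0 of 27 and 0 of 4099 genes (0%), with 1 of the 27 and 87 of all genes at an unadjusted p under 0.05; DESeq2 called 0 genes, with 128 at an unadjusted p under 0.05. The 1 was SNORD46, which had 2174, 2351, 2837, 1793 and 3240 CPM with GKT136901+LPL:VLDL, 2178, 8688, 3625, 1809 and 2691 CPM with LPL:VLDL, and in the VLDL libraries 2923, 2981, 2788, 3039 and 3178 CPM. A single LPL:VLDL library stood far above all others and the groups overlapped. SNORD46 averaged 2479 ± 567 CPM with GKT136901+LPL:VLDL and 3798 ± 2817 CPM with LPL:VLDL (SD, n = 5 each). The log2 difference was -0.62 (SE 0.28, edgeR adjusted p = 1.00), lower in 4 of 5 experiments. With the experiment as a block it was -0.45 (SE 0.21). Without LPL:VLDL replicate 2, in the fit without the block, it was -0.06. SNORD55 (-0.32, SE 0.23) and SNORD68 (-0.31, SE 0.23) followed on the negative side, and SNORD18B (0.11, SE 0.25), SNORD83B (0.07, SE 0.20) and SNORD72 (0.10, SE 0.28) on the positive side.

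Of the 27, 7 were above and 20 below 0 in this comparison, with a median of -0.06 against -0.02 for all genes. Without LPL:VLDL replicate 2 the split was 21 above and 6 below, with a median of 0.06, and without GKT136901+LPL:VLDL replicate 4 it was 14 above and 13 below. With library-size scaling it was 17 above and 10 below. Without LPL:VLDL replicate 2, SNORD55 and SNORD68 stood at 0.05 and 0.01.

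GKT136901+LPL:VLDL against VLDL, which shares libraries with both comparisons above, gave 0 of 27 snoRNAs and 0 of 4099 genes (0%), with 0 of the 27 and 91 of all genes at an unadjusted p under 0.05; DESeq2 called 0 genes, with 128 at an unadjusted p under 0.05. Log2 differences were above 0 for 12 and below 0 for 15, with a median of -0.03 (all genes -0.0042). SNORD46 averaged 2479 ± 567 CPM with GKT136901+LPL:VLDL and 2982 ± 144 CPM with VLDL, a difference of -0.27 (SE 0.28). SNORD15B averaged 60.9 ± 13.0 CPM with GKT136901+LPL:VLDL and 72.3 ± 17.3 CPM with VLDL, a difference of -0.25 (SE 0.23), and SNORD16 stood at -0.19 (SE 0.24). With the experiment as a block, SNORD46, SNORD15B and SNORD16 stood at -0.30 (SE 0.20), -0.25 (SE 0.14) and -0.22 (SE 0.15). SNORD83B (0.13, SE 0.20), SNORD42A (0.10, SE 0.17) and SNORD54 (0.11, SE 0.24) had the lowest p on the positive side, and no snoRNA lay on 1 side in all 5 experiments. The split was 7 above and 20 below with library-size scaling, 17 above and 10 below without GKT136901+LPL:VLDL replicate 4, and 14 above and 13 below without GKT136901+LPL:VLDL replicate 1 or without VLDL replicate 2. With the stricter filter it was 3 above and 24 below, with a median of -0.11 (all genes -0.04), and with the replicate block and without replicate 4 it was 20 above and 7 below.

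**Figure D3:**
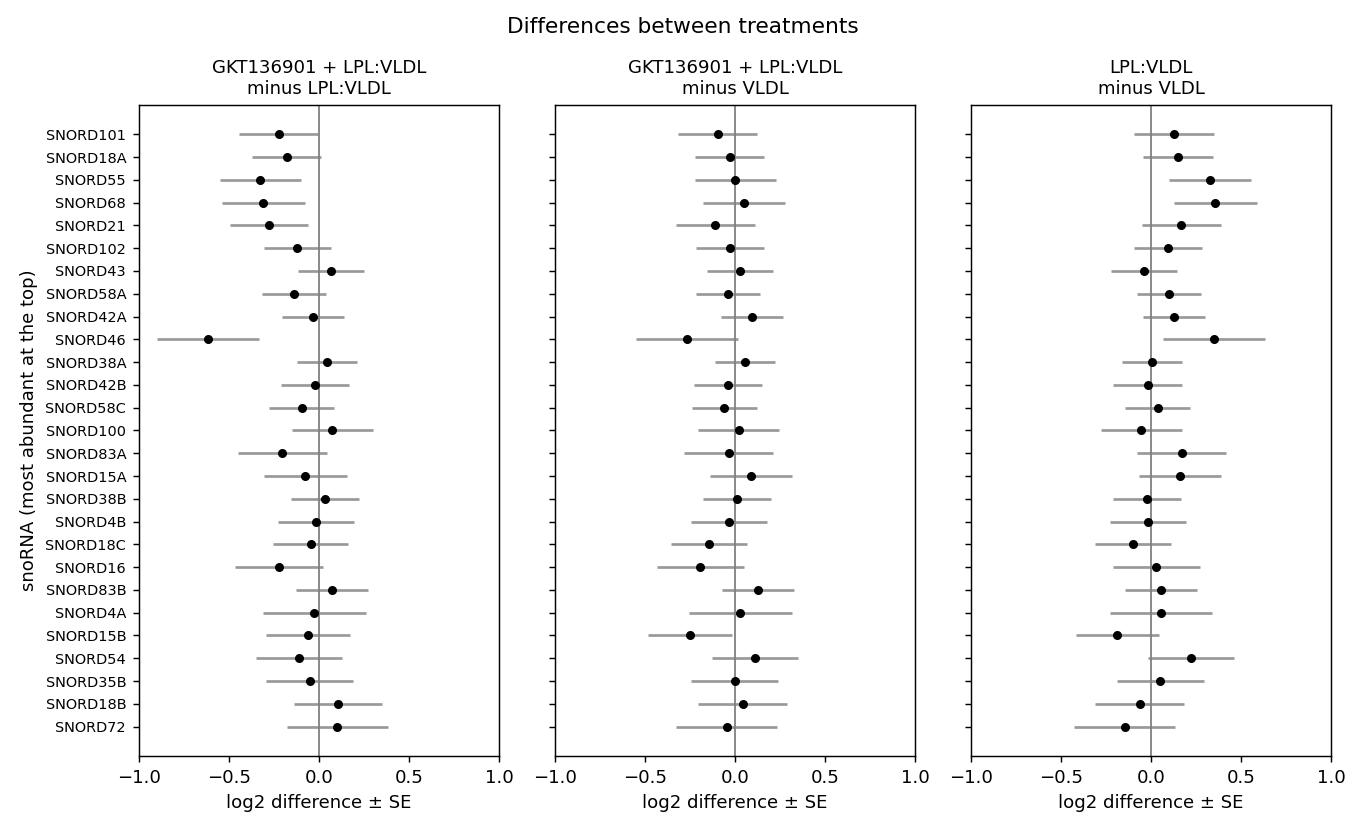
Log2 differences of the 27 snoRNAs in the 3 treatment comparisons, with the most abundant at the top. Points are edgeR estimates and bars are ± 1 SE, in log2 units on the horizontal axis; the largest in size is SNORD46 in GKT136901+LPL:VLDL minus LPL:VLDL, at -0.62 (-0.06 without LPL:VLDL replicate 2), and none passed the adjusted threshold.

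The share of all counts held by the set showed the same overlap. It was 10.0 ± 0.925% with GKT136901+LPL:VLDL, 10.4 ± 1.83% with LPL:VLDL and 10.6 ± 0.440% with VLDL (SD, n = 5 each). LPL:VLDL replicate 2 held the highest share of all, 13.5%, and without it the LPL:VLDL mean was 9.68 ± 0.750% (SD, n = 4). In such bulk libraries a change in the number of cells of a type and a change in RNA per cell cannot be told apart.

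LPL:VLDL replicate 2, the LPL:VLDL library of experiment 3, stood apart for many of the snoRNAs. It was the highest of all 15 libraries for 16 of the 27 and above the other 4 LPL:VLDL libraries for 20, the lowest for 0. With library-size scaling these counts were 7 and 10, and with DESeq2 size factors 15 and 20; its TMM factor was the lowest of all, 0.765. Relative to the mean of the other 4 LPL:VLDL libraries it was 3.37-fold higher for SNORD46, 2.49-fold for SNORD55, 2.47-fold for SNORD83A, 2.27-fold for SNORD68 and 2.12-fold for SNORD21. With library-size scaling SNORD46, SNORD55, SNORD68 and SNORD21 were still 2.60-, 1.92-, 1.76- and 1.65-fold higher. At the other end it was 1.04-fold for SNORD38B and 0.893-fold for SNORD15A. For SNORD15A the other 4 include replicate 1, of experiment 2, at 890 CPM, while LPL:VLDL replicate 2 had 563 CPM.

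Ratios of snoRNAs of 1 host within a library do not depend on the scaling and showed that the library differed unevenly. SNORD43 over SNORD83A, both of RPL3, was 4.76 in LPL:VLDL replicate 2, against 7.60 to 12.3 in the other 14 libraries. SNORD58A over SNORD58C, both of RPL17, was 3.65 there, against 2.63 to 3.19, while SNORD42A over SNORD42B (1.59, against 1.27 to 2.17) was within the range of the others. Over the 27 snoRNAs, the fold of this library over the other 4 of its group had a Spearman correlation of 0.35 with GC content, 0.19 with length and 0.32 with mean CPM, as a description of snoRNAs sharing these libraries; their part in the result was not tested.

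**Figure D4:**
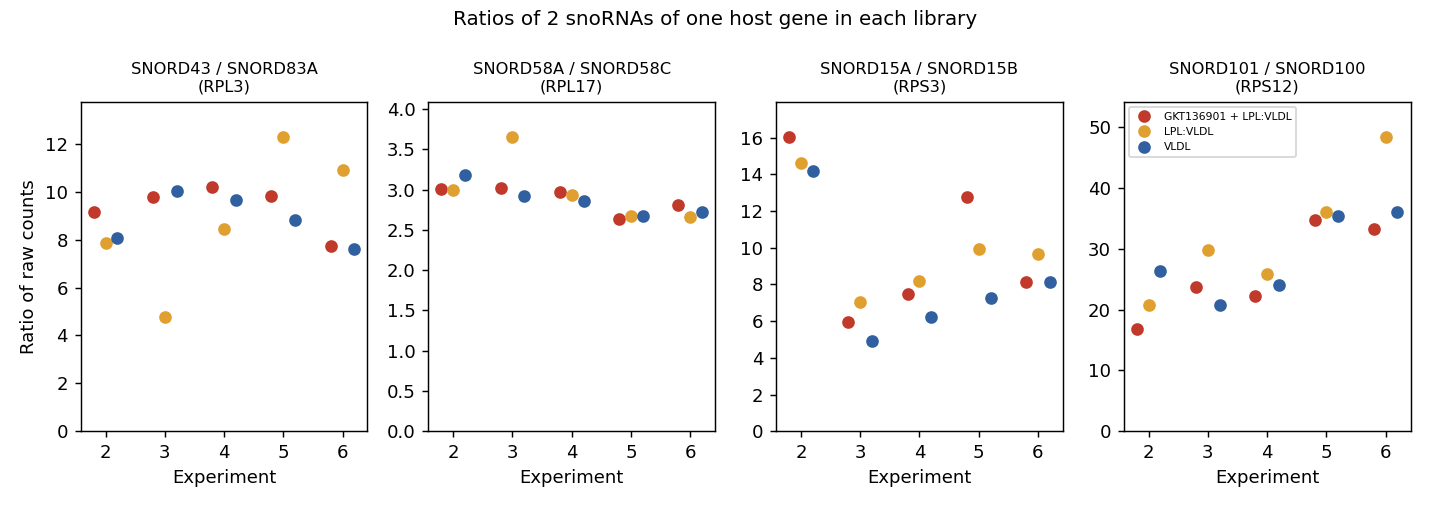
Ratios of raw counts of a pair of snoRNAs from 1 host gene in each library, by experiment, with a linear axis from 0. Red points are GKT136901+LPL:VLDL, yellow LPL:VLDL and blue VLDL; SNORD43 over SNORD83A is 4.76 in the LPL:VLDL library of experiment 3, SNORD15A over SNORD15B is 14.2 to 16.0 in experiment 2, and SNORD101 over SNORD100 is highest in experiments 5 and 6.

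Differences between the 5 experiments passed the test for many genes. An F test of the 5 experiments in a model with the treatment group called 455 of 4099 genes (11.1%) and 12 of the 27 snoRNAs. Among the other SNORD genes tested, 59 of 139 (42.4%) were called, and of the 27 snoRNAs 44.4%, a share close to that of the rest of its class. Under the stricter filter, where low genes drop out, 322 of 503 genes (64.0%) and 13 of the 27 (48.1%) were called. Of the other SNORD genes tested there, 59 of 112 were called. With library-size scaling 514 of 4099 genes (12.5%) and 15 of the 27 (55.6%) were called. The called snoRNAs were SNORD15A, SNORD100, SNORD101, SNORD4A, SNORD102, SNORD68, SNORD83A, SNORD43, SNORD42B, SNORD18A, SNORD55 and SNORD21.

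SNORD15A had the lowest p and separated experiment 2 from the rest. It had 952, 445, 533, 536 and 462 CPM with GKT136901+LPL:VLDL, 890, 563, 534, 527 and 569 CPM with LPL:VLDL, and in the VLDL libraries 774, 494, 419, 546 and 523 CPM, in the order of experiments 2 to 6. Each library of experiment 2 was above all other 12 libraries. The mean was 872 ± 90.7 CPM in experiment 2 (SD, n = 3) and 513 ± 47.4 CPM in experiments 3 to 6 (SD, n = 12), 1.70-fold higher, and 2.29-fold with library-size scaling; the range of the 5 experiments was 0.82 on the log2 scale (edgeR adjusted p = 7.05e-05). SNORD15B of the same host, not called (adjusted p = 0.0906), averaged 58.2 ± 3.26 CPM in experiment 2 and 67.4 ± 14.8 CPM in experiments 3 to 6. The ratio of raw counts of SNORD15A to SNORD15B was 14.2 to 16.0 in experiment 2, against 4.93 to 12.7 in the others.

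SNORD101 moved the other way under TMM scaling. It averaged 16597 ± 2186 CPM in experiment 2 and 29004 ± 5291 CPM in experiments 3 to 6 (SD, n = 3 and 12). That is 0.572-fold, or 0.780-fold with library-size scaling, with a range of 0.95 on the log2 scale (edgeR adjusted p = 0.000209). Its share of the counts of the set, which needs no scaling between libraries, was 18.2 to 22.6% in experiment 2, against 24.1 to 28.9% in the others. SNORD100 of the same host, an 18S guide, had 957, 1212, 1029, 716 and 911 CPM with GKT136901+LPL:VLDL, 706, 1434, 1048, 685 and 712 CPM with LPL:VLDL, and in the VLDL libraries 719, 1228, 1161, 818 and 831 CPM. Under TMM scaling SNORD100 was high in experiments 3 and 4 and low in experiments 5 and 6, with a range of 0.81 (edgeR adjusted p = 0.000185). For LPL:VLDL and VLDL it was also low in experiment 2, where the TMM factors were the highest of all, 1.34 and 1.32. This low level was not compared under another scaling. SNORD101 over SNORD100 averaged 21.4, 24.8, 24.0, 35.4 and 39.2 in experiments 2 to 6.

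SNORD4A of RPL23A, an 18S guide, had 122, 91.9, 87.9, 41.3 and 55.7 CPM with GKT136901+LPL:VLDL, 82.2, 130, 82.4, 59.7 and 51.5 CPM with LPL:VLDL, and in the VLDL libraries 82.0, 102, 89.2, 63.8 and 53.2 CPM. Experiments 2 to 4 were high and experiments 5 and 6 low in every group, with a range of 1.01 (edgeR adjusted p = 0.000253). SNORD4B over SNORD4A averaged 1.88, 1.96, 2.30, 2.89 and 3.35 in experiments 2 to 6. SNORD4B itself had the highest p of the 27, with a range of 0.42 (adjusted p = 0.499), next to SNORD83B with 0.33 (adjusted p = 0.476). The other called snoRNAs ranged from 0.50 (SNORD43) to 0.94 (SNORD83A) on the log2 scale.

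**Figure D5:**
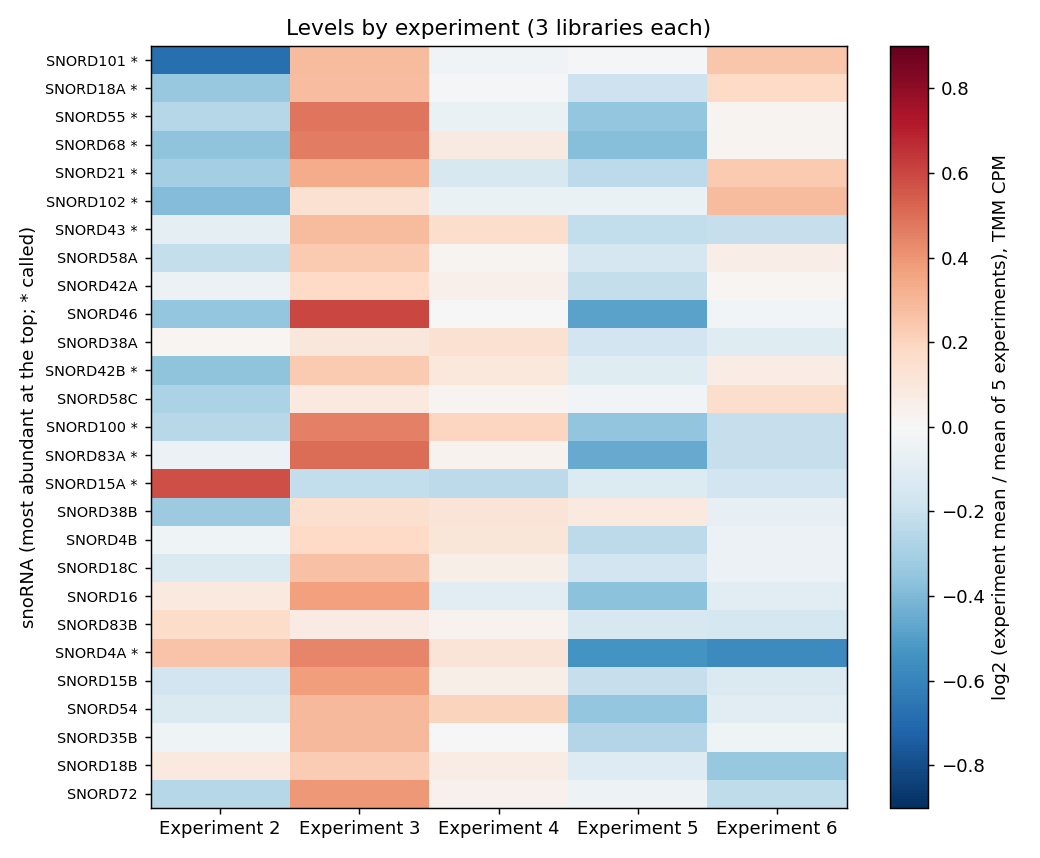
Mean level of the 27 snoRNAs in each experiment, as the log2 ratio of TMM-scaled CPM to the mean of the 5 experiments (colour scale, red higher, blue lower), with the most abundant at the top and called snoRNAs marked by an asterisk. Each cell is the mean of 3 libraries, 1 per treatment; SNORD15A is red and SNORD101 blue in experiment 2, and experiment 3 holds the highest value for 22 of the 27, or for 13 without LPL:VLDL replicate 2.

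Under TMM scaling experiment 3, which holds LPL:VLDL replicate 2, was highest for 22 of the 27. It was highest for 13 when its mean was taken without that library, and experiment 5 was lowest for 14. These ranks were not taken under library-size scaling, and the place of experiment 2 depended on the scaling, as given below. LPL:VLDL replicate 2 was chosen for leaving out after the data were seen. With that library left out, 463 of 4700 genes (9.85%) and 13 of the 27 (48.1%) were called. Without experiment 2, 145 of 3852 genes (3.76%) and 4 of the 27 were called, SNORD100, SNORD4A, SNORD83A and SNORD43, all among the 12. Without it the range of SNORD15A was 0.13 (edgeR adjusted p = 0.964) and that of SNORD101 0.29 (edgeR adjusted p = 0.495).

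The direction of experiment 2 for the set as a whole depended on the scaling. Its mean was below that of experiments 3 to 6 for 21 of the 27 with TMM factors or with DESeq2 size factors, but above it for 24 of the 27 with library-size scaling; its TMM factors were 1.16 to 1.34. As a share of SNORD counts, the set held 16.3 to 17.4% in experiment 2, against 17.3 to 20.5% in the others. Over the 27, the TMM fold of experiment 2 over the others had a Spearman correlation of -0.61 with mean CPM, a description of snoRNAs that share these libraries. Other RNAs differed in the same libraries: Y RNAs held 3.12 to 3.25% of counts in experiment 2, against 0.546 to 1.05% in the others, myeloid marker fragments summed to 78.0 to 119 CPM, against 25.7 to 52.6 CPM, and fragments of the 15 hosts to 29.3 to 37.2 CPM, against 9.20 to 19.0 CPM. Their part in the result was not tested.

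Genes of the snoRNA machinery could hardly be read in these libraries. Of the 4 core proteins, only NOP58 was high enough to test, with 117 counts in all, and fibrillarin (FBL) had 0 counts; 0 of 1 was called in any comparison. Of 10 genes for snoRNP assembly, intron binding and transport, 0 were high enough to test. Of the 15 host genes, 9 were tested, 0 were called in the treatment comparisons and 1, RPL37, in the experiment test (edgeR adjusted p = 0.0376), while its snoRNA SNORD72 was not called (adjusted p = 0.371).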

How the data were processed

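Per the file headers, the deposited values are raw read counts per gene made by the authors with featureCounts 2.0.6 from exons joined by gene_id in the RefSeq annotation; the command sets no strand, multi-mapping or overlap option. Per the submitters' processing notes, fastp 0.24.0, STAR 2.7.11b and the hg38 build were used; the notes also list edgeR 4.4.2, DESeq2 1.46 and R 4.4.2 but not what they did. Counts therefore do not separate the strands, and counting error does not cover PCR duplicates.

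The set and the gene lists were chosen with earlier results of these data known. Genes were filtered with filterByExpr (minimum count 10, minimum total count 15; 4099 genes with 99.664% of counts), scaled with TMM and tested two-sided with edgeR 4.0.16 (R 4.3.3, quasi-likelihood F test, 3 groups, 12 residual degrees of freedom); p-values were adjusted by Benjamini-Hochberg across these 4099, with calls at an adjusted p below 0.05. The experiment test is an F test of the experiment coefficients in a model of group and experiment. Standard errors are from the same fits, and CPM is given as mean ± SD over libraries. The scripts were tested on simulated data with less scatter between libraries than these data. That checks the code, and not whether a difference of a given size would be found here. Libraries with the same replicate number share an experiment label and are therefore paired; after removing group means, the 15 same-experiment pairs had r = 0.0664 to 0.378 (median 0.115) and the 60 other pairs -0.148 to 0.148. A fit blocked by experiment (8 residual degrees of freedom), DESeq2 1.42.0, other scalings and filters, and leaving out each library were alternatives. Sequences come from GENCODE release 29 transcripts. Results by host for 1 host gene, and some sequences, are not reported here. Named snoRNAs are the 8 most abundant, the 3 with the lowest p in each direction of each treatment comparison, and the 4 with the lowest and 2 with the highest p in the experiment test, with their copies. SNORD54 in LPL:VLDL against VLDL, and SNORD83A, SNORD43 and RPL37 in the experiment test, were named after their values were seen.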

Additional observations from a re-analysis of the deposited data

Results flagged for a closer look

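Among 69 sets of 5 libraries examined (23 named snoRNAs in 3 groups), 4 held a library far from the other 4 by the size of its gap to the next library relative to the whole range (Dixon's criterion); chance marks about 1 in 20 such sets. SNORD15A was 952 CPM in GKT136901+LPL:VLDL replicate 1, against 445 to 536 CPM in the other 4 libraries of that group, and 890 CPM in LPL:VLDL replicate 1, against 527 to 569 CPM. Both libraries belong to experiment 2. SNORD46 was 8688 CPM in LPL:VLDL replicate 2, against 1809 to 3625 CPM in the other 4 LPL:VLDL libraries. SNORD55 was 22843 CPM in the same library, against 7826 to 10862 CPM.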

How the results depend on the processing

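In the treatment comparisons 0 of the 27 snoRNAs was called under every alternative run. The number of all genes called moved, from 0, in LPL:VLDL against VLDL to 1 with the replicate block, 5 with DESeq2 and the block, 1 with the block and without LPL:VLDL replicate 2 (chosen after seeing the data), and 0 to 2 when the blocked fit left out each replicate number. In GKT136901+LPL:VLDL against VLDL it was 2 with DESeq2 and the block and 1 with the block and without LPL:VLDL replicate 2. The block changed no other call. In the experiment test, leaving out each experiment gave 145 to 460 genes and 4 to 11 snoRNAs, lowest without replicate 1 (experiment 2).

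Some uncalled log2 differences changed sign when a library was left out. In LPL:VLDL against VLDL, leaving out 1 library gave -0.0604 to 0.448 for SNORD55 and -0.217 to 0.532 for SNORD46; with the replicate block, leaving out 1 replicate number gave -0.0670 to 0.332 and -0.276 to 0.378, and leaving out LPL:VLDL replicate 2 alone -0.0462 and -0.279. In GKT136901+LPL:VLDL against LPL:VLDL, leaving out 1 library gave -0.0017 to 0.169 for SNORD18B, -0.0233 to 0.192 for SNORD72, -0.452 to 0.0498 for SNORD55 and -0.444 to 0.0136 for SNORD68; for SNORD55 the block gave -0.364 to 0.0162 over the replicate numbers and 0.0294 without LPL:VLDL replicate 2. In GKT136901+LPL:VLDL against VLDL, the block gave -0.0110 to 0.150 for SNORD42A. The cause was not tested. In the experiment test SNORD83B was called with library-size scaling (0.82, adjusted p = 0.00113) and with the stricter filter (0.64, adjusted p = 0.000798), and SNORD4B with library-size scaling (0.57, adjusted p = 0.0412). Standard errors of the treatment differences, on the log2 scale, were 0.17 to 0.28 without the block and 0.094 to 0.21 with it.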
